A study of Homo sapiens with 12 samples.

Results

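The ZFP36 family holds 3 genes, ZFP36, ZFP36L1 and ZFP36L2, which encode RNA-binding proteins that promote mRNA decay. All peak regions of 8 chromatin immunoprecipitation (ChIP) libraries whose summit lay in the span of one of these genes, or within 200 kb of it, were taken. This gave 40 of the 11908 regions of the series. They comprised 21 near ZFP36L2, 11 near ZFP36 and 8 near ZFP36L1. The libraries came from SUPT-1, an established human T-cell leukaemia line with a doxycycline-inducible construct for either wild type (WT) STAT5B (here the WT line) or the STAT5B_N642H mutant (here the N642H line). Cells of both lines were treated with doxycycline, so no library shows cells without added STAT5B. The lines had been selected with puromycin. Cells then received either no further drug or the synthetic glucocorticoid prednisolone, at 250 µg per ml for 16 hours. In each of these conditions NR3C1, the glucocorticoid receptor, and STAT5B were pulled down. Every group was 1 library, so differences between groups have no replicate check and no p-value is given between conditions.

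ZFP36 proteins bind AU-rich elements in the untranslated region past the coding sequence of mRNAs, through a pair of zinc fingers. They recruit the CCR4-NOT deadenylase, which shortens the poly(A) tail and starts decay of the mRNA. Their known targets include mRNAs of cytokines, cyclins and other growth regulators. ZFP36, also called tristetraprolin, is a known glucocorticoid-induced gene in several cell types. Loss of ZFP36L1 and ZFP36L2 together in mouse thymocytes is known to lead to T-cell leukaemia, and Notch1 mRNA is one of their targets. NR3C1 enters the nucleus and binds DNA once it holds a ligand. STAT5B binds DNA after activation by cytokine receptors, and N642H is an activating mutation.

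Sequence under the regions is shown where RefSeq gives a promoter window (250 bases before to 50 after a start site, GRCh38.p14) or a hairpin there. Capitals mark the bases that lay inside a called region, and all are written 5′ to 3′ on the strand of the named gene. The first is the inner start site of ZFP36L1 (chr14:68793367-68793666, minus strand), which carried untreated STAT5B regions of both lines. The second is the start of PLEKHG2, the next protein-coding gene above ZFP36 (chr19:39412419-39412718, plus strand), under NR3C1 and STAT5B regions of the N642H line. The third is the start of the non-coding RNA LOC107984709, below ZFP36L1 (chr14:68780148-68780447, minus strand), at the edge of an NR3C1 region of the N642H line. The fourth is the hairpin of MIR4530, just past the end of ZFP36 (chr19:39409623-39409678, minus strand), under an NR3C1 region of the WT line.
ZFP36L1 inner start: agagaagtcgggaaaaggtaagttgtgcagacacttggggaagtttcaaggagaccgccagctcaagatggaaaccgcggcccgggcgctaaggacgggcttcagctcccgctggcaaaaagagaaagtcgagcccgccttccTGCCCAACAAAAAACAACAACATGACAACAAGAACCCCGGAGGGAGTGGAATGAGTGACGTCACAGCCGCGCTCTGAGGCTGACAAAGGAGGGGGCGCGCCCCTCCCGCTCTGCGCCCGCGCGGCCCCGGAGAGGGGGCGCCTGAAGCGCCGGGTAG
PLEKHG2 start: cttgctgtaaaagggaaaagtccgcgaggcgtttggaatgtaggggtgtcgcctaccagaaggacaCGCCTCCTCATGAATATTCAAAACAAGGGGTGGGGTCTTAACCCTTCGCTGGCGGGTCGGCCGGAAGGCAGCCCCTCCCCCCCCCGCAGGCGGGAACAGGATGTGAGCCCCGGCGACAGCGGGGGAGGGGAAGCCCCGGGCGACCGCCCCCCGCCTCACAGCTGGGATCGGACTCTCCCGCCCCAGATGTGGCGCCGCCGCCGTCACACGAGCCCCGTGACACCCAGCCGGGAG
LOC107984709 start: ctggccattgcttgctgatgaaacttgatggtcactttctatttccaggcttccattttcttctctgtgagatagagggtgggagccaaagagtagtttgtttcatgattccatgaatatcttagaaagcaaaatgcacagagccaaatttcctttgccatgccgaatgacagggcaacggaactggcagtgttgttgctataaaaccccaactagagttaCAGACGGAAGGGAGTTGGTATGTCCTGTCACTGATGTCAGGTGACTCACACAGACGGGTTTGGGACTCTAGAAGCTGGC
MIR4530 hairpin: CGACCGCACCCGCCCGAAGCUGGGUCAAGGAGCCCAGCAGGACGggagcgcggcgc

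The windows of ZFP36, ZFP36L1 (2 windows) and PLEKHG2 held no STAT5 motif TTCNNNGAA. This motif was found in 7.66% of all 35116 promoter windows. The LOC107984709 window held 1, outside the called region. None of these 5 windows held the glucocorticoid receptor motif GNACANNNTGTNC (0.390% of all windows) or its hexamer TGTTCT (14.8% of all windows). The hexamer was found once in the TIMM50 window and once in 1 of the SUPT5H windows, both of which overlap STAT5B regions above ZFP36. The TIMM50 hexamer lay inside the called region and the SUPT5H hexamer outside it. Motifs were searched on both strands, and the hexamer can overlap the longer receptor motif. The ZFP36 window met no called region. Of the ZFP36L1 windows, the outer one held 2 bases of a called region and the inner one 157. Most bases of the STAT5B regions at ZFP36L1 were therefore not searched. The table used here held no window for ZFP36L2, and the sequence of its sites was not analysed here.

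The 6 long lists held between 446 and 4542 regions, and the untreated NR3C1 lists held 2 each. Fold enrichment is the authors' ratio of ChIP to local background at a summit, and −log10 q is their significance value, which was at least 2 in every list. Both describe a region within its own list. The number of ChIP fragments stacked at a summit was recovered from these values. Among the 60 weakest called regions of each long list the fewest were 6 to 9 fragments, so a weaker site may be missing from a list.

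**Figure D1:**
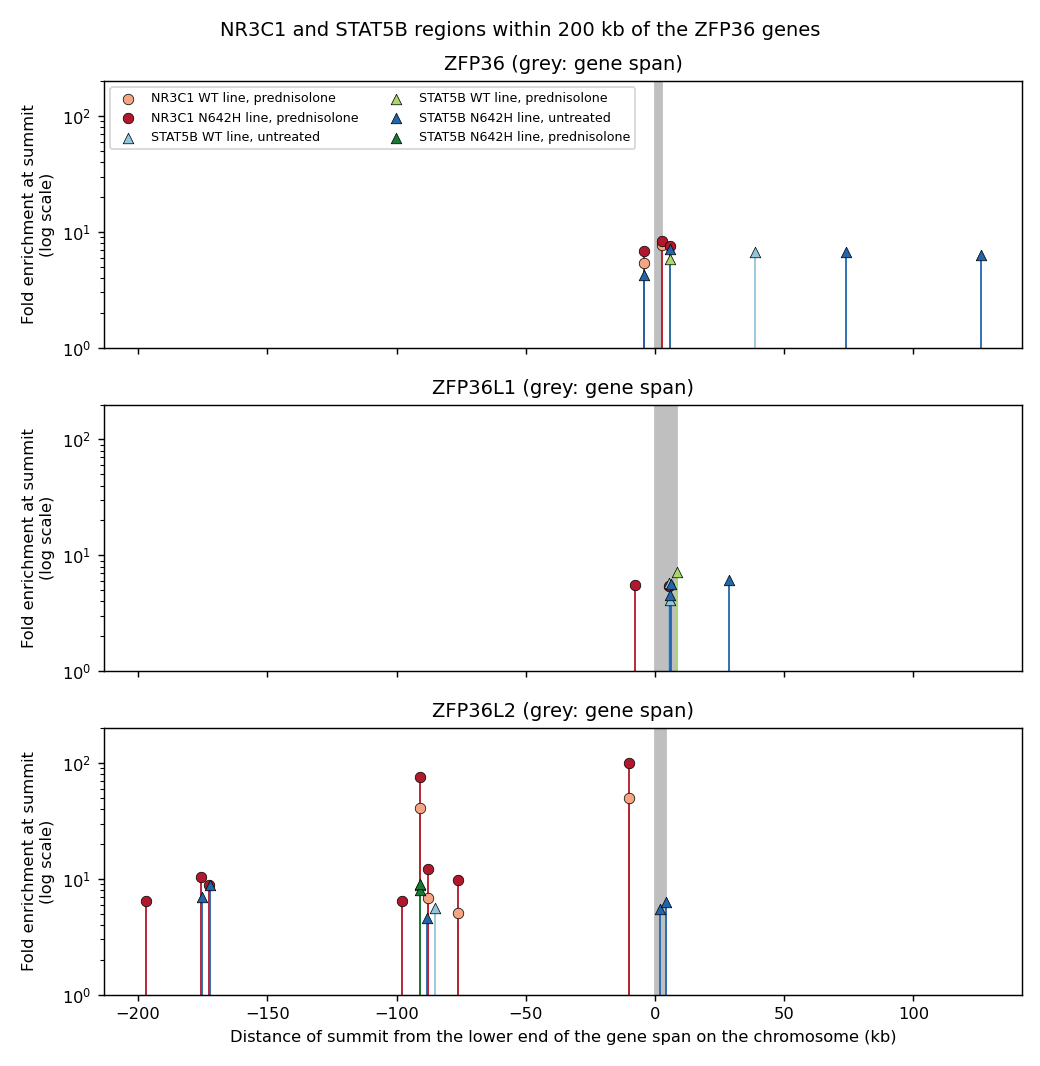
Each mark is 1 region, placed by the distance of its summit from the lower end of the gene span (x axis, kb) and its fold enrichment (y axis, log scale); circles are NR3C1 and triangles STAT5B, coloured by list, and grey bands are gene spans. The tallest marks are 2 NR3C1 sites below ZFP36L2, with folds of 40.9 and 75.2 at the farther site and 50.1 and 99.3 at the nearer one.

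ZFP36L2 (gene ID 678, chr2:43222402-43226606) had the highest-ranked regions of the family, and these were NR3C1 regions of prednisolone-treated cells. A site 9864 bp below the gene, that is at lower coordinates, carried 111 NR3C1 fragments in the WT line (fold 50.1, −log10 q 152, rank 12 of 995). In the N642H line the same site carried 188 fragments (fold 99.3, −log10 q 352, rank 20 of 2888). The regions were chr2:43212297-43212799 and chr2:43212268-43212813, their summits fell on the same base, and no gene of any kind was nearer than ZFP36L2. Counting error alone gave exact Poisson 95% intervals of 91.3 to 134 and 162 to 217 fragments. The libraries' total depth was not determined here, so the fragment numbers are no measure of a change between lines.

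A farther site lay about 90.8 kb below ZFP36L2, inside the non-coding RNA gene LOC105374570. NR3C1 had 136 fragments there in the WT line (chr2:43131079-43131838, fold 40.9, rank 9), with a counting interval of 114 to 161. In the N642H line it had 244 fragments (chr2:43131039-43131951, fold 75.2, rank 10), with an interval of 214 to 277. The local background was above that of the nearer site, at 2.24 against 1.12 fragments in the WT line and 2.26 against 0.904 in the N642H line. Neither untreated NR3C1 list had a region within 200 kb of any of the 3 genes, and 0.115% of the 20037 protein-coding genes had one in each of them.

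STAT5B was called at only 1 of these 2 sites. At the farther site both lines had STAT5B regions in prednisolone-treated cells, and neither had one in untreated cells. The WT line had 1 STAT5B region of 30 fragments (fold 8.82, rank 37 of 766), whose summit was 2 bp from the NR3C1 summit of that line. The N642H line had 2 STAT5B regions of 14 and 12 fragments (fold 8.96 and 8.05, ranks 95 and 148 of 446), with summits 36 and 244 bp from its NR3C1 summit. The nearer site had no STAT5B region in any of the 4 STAT5B lists. In both NR3C1 lists its fold was the higher of the 2 sites, but it had fewer fragments and ranked lower by −log10 q.

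Among the 20 strongest NR3C1 regions of each line by −log10 q, a STAT5B region of the same line with prednisolone overlapped 16 in the WT line and 18 in the N642H line. Among the 100 strongest such a region overlapped 35 and 27, so most of these had none. The site 9864 bp below ZFP36L2, at ranks 12 and 20, had none in either line. The others without one among the first 20 were nearest to RCSD1, USP53 and GRAMD2B in the WT line and to GNLY in the N642H line. Both set sizes were chosen after the values had been seen. Over the whole NR3C1 lists, 14.1% of WT regions and 7.76% of N642H regions overlapped a STAT5B region of the same line with prednisolone. Near the ZFP36 genes this held for 1 of 6 WT regions and 1 of 13 N642H regions, in each case the farther ZFP36L2 site.

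**Figure D2:**
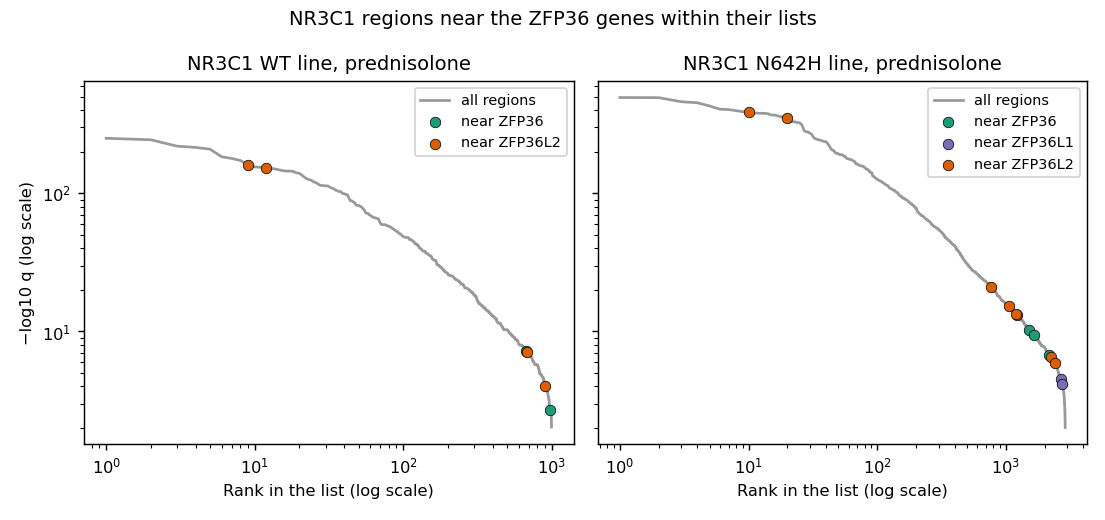
All NR3C1 regions of each line with prednisolone are ranked by −log10 q (grey line, both axes on log scales), with regions near the ZFP36 genes marked as points. Of the marked regions, 2 of each line stand at ranks 9 and 12 (WT) or 10 and 20 (N642H), both near ZFP36L2, and the others lie at rank 670 or beyond in the WT line and 764 or beyond in the N642H line.

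Weaker NR3C1 sites surrounded the farther site. NR3C1 had 17 fragments 87888 bp below ZFP36L2 in the WT line (fold 6.77) and 25 fragments at 87922 bp in the N642H line (fold 12.1). Nearer to the gene it had 16 fragments at 76056 bp in the WT line (fold 5.10) and 17 at 76071 bp in the N642H line (fold 9.84). The N642H line had 4 further regions that were not called in the WT line, at 97982, 172457, 175545 and 197130 bp, with folds of 6.43, 8.89, 10.4 and 6.43. ZFP36L2 thus had 4 NR3C1 regions within 200 kb in the WT line, a number reached by 0.210% of protein-coding genes, and 8 in the N642H line, reached by 0.120%. Neighbouring genes share such regions, so these genes are not independent. Just outside the window, 208356 bp (WT) and 208357 bp (N642H) from the gene, lay NR3C1 regions of fold 8.68 and 18.3. The farthest region inside it was that at 197130 bp.

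ZFP36L2 was the nearest named protein-coding gene for all 21 regions. A predicted protein-coding gene, LOC107985876, was nearer for 17 of them, and the site inside LOC105374570 lay 29140 bp (WT) and 29146 bp (N642H) from it. The 4 regions nearest to ZFP36L2 itself were both NR3C1 regions at 9864 bp and 2 untreated STAT5B regions of the N642H line. These STAT5B regions lay inside the gene (chr2:43224251-43224406, fold 5.48, 15 fragments) and across its upper end (chr2:43226584-43226788, fold 6.36, 19 fragments). The strand of ZFP36L2 was not determined here, so below and upper refer to coordinates and not to the side of its start.

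Other untreated STAT5B regions near ZFP36L2 were distant. In the N642H line the strongest lay 172352 bp below the gene (chr2:43049914-43050365), with 32 fragments, fold 8.80 and rank 233 of 4542. It was the highest-ranked STAT5B region of the family in that list, and an NR3C1 region of the N642H line overlapped it, with summits 105 bp apart. A further region lay 175203 bp from the gene (fold 6.99) and another 88150 bp from it (fold 4.59), where it overlapped NR3C1 regions of both lines. The WT line had 1 untreated region, 85289 bp from the gene (fold 5.56, 10 fragments), and no other list had a region at that place.

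**Figure D3:**
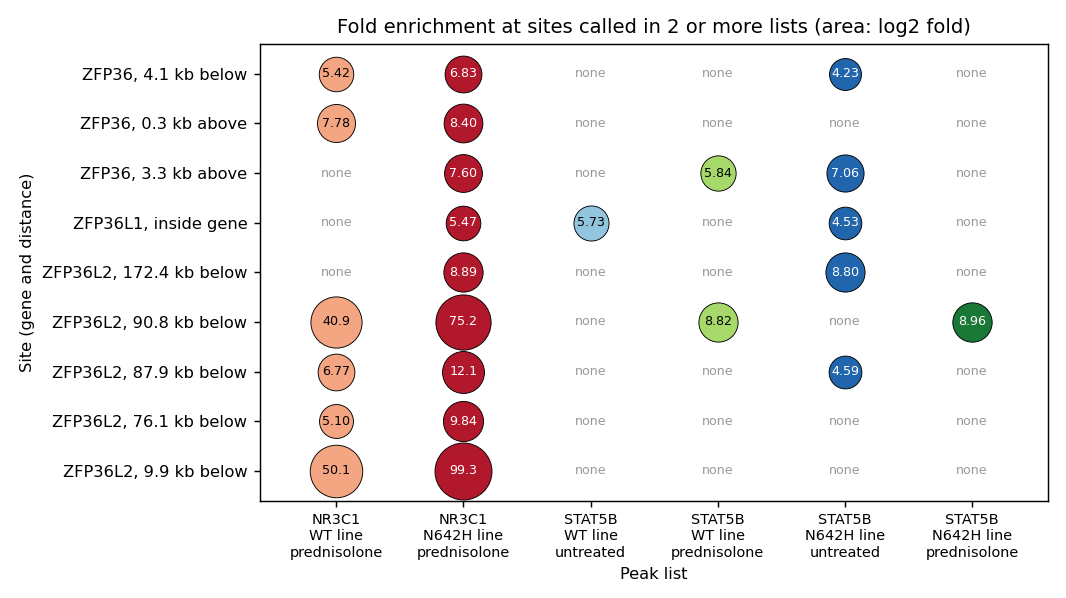
Rows are the 9 sites called in at least 2 lists and columns the 6 long lists; each disc gives the fold enrichment of the strongest region there (area follows log2 fold), and "none" means that no region was called. Discs are largest for NR3C1 at 2 ZFP36L2 sites, and the site 90.8 kb below ZFP36L2 is the only row with STAT5B in both prednisolone lists.

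ZFP36 (gene ID 7538, chr19:39406847-39409407) had weak NR3C1 regions close to both ends of the gene. At 4128 bp upstream of its start, NR3C1 had 11 fragments in the WT line (fold 5.42, rank 967 of 995) and 12 in the N642H line (fold 6.83, rank 2150 of 2888), with summits on the same base. An untreated STAT5B region of the N642H line overlapped both (fold 4.23, 11 fragments). MED29, a Mediator subunit gene, was nearer to this site, at 2078 bp from the NR3C1 summits. The RefSeq promoter window of ZFP36 itself (chr19:39406597-39406896) was touched by no region of any list.

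The second NR3C1 site of ZFP36 lay just past its end. It had 14 fragments in the WT line (chr19:39409635-39409767, fold 7.78, 281 bp from the gene) and 15 in the N642H line (chr19:39409688-39409824, fold 8.40, 349 bp from the gene). ZFP36 was the nearest protein-coding gene, and the MIR4530 hairpin lay closer still, 10 and 78 bp from the summits. The WT region covered 44 of the 56 hairpin bases printed above. No STAT5B region overlapped this site in any list.

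The third site of ZFP36 sat 3114 to 3393 bp past its end, at the start of PLEKHG2, a gene for a guanine nucleotide exchange factor. NR3C1 was called there in the N642H line (fold 7.60, 16 fragments), as was untreated STAT5B (fold 7.06, 19 fragments), with summits 148 bp apart. In the WT line STAT5B was called there with prednisolone only (chr19:39412741-39412818, fold 5.84, 10 fragments), 93.3% of the way down its list. The 3 other STAT5B regions lay in or beside farther genes. They were at SUPT5H, a transcription elongation factor gene (WT line, untreated, fold 6.67), and at TIMM50, a mitochondrial import gene, and EID2B (N642H line, untreated, folds of 6.70 and 6.27). Another protein-coding gene was nearer than ZFP36 for 9 of the 11 regions.

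ZFP36L1 (gene ID 677, chr14:68787655-68796243) had mostly STAT5B regions, and most lay inside the gene. It was the nearest protein-coding gene for all 8 regions, and 6 lay in its span. Around its inner start site (base 68793416) untreated STAT5B was called in both lines. The N642H region chr14:68792984-68793523 had 16 fragments and fold 4.53. The WT line had 2 regions within it, with 11 fragments each (folds of 5.73 and 4.14, ranks 1568 and 2189 of 2267). This was the family's only STAT5B site shared by the untreated lines.

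The N642H line had a second untreated STAT5B region 488 bp upstream of the inner start (fold 5.69, 13 fragments) and another 19995 bp above the gene (fold 6.12, 13 fragments). In the WT line with prednisolone STAT5B was instead called 184 bp downstream of the outer start site (chr14:68796030-68796195, fold 7.24, 14 fragments, rank 437 of 766). NR3C1 was called near ZFP36L1 in the N642H line only. One region lay inside the gene (chr14:68792906-68793042, fold 5.47, 10 fragments, rank 2737 of 2888) and overlapped the untreated STAT5B region of that line. The other lay 7589 bp below the gene at the start of LOC107984709 (fold 5.51, 11 fragments, rank 2685). Both were among the weakest NR3C1 regions of that list.

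By antibody and treatment, NR3C1 regions near the 3 genes numbered 6 in the WT line and 13 in the N642H line with prednisolone. All 6 WT regions overlapped an N642H region, against 89.9% over the whole WT list. In the other direction 6 of 13 N642H regions overlapped a WT region, against 30.7% over the list. At least 1 NR3C1 region lay within 200 kb of 2 of the 3 genes in the WT line, where 16.8% of protein-coding genes had one, and of all 3 in the N642H line, where the share was 38.6%. Untreated STAT5B regions of the same line overlapped 0 of 6 WT NR3C1 regions (16.3% over the list) and 5 of 13 N642H regions (27.8% over the list).

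STAT5B regions near the 3 genes numbered 4 (WT) and 12 (N642H) without the drug, and 3 and 2 with it. Untreated, 2 of 4 WT regions overlapped an N642H region (61.4% over the list), and 1 of 12 N642H regions overlapped a WT region (29.8% over the list). None of the 4 untreated WT regions was called again with prednisolone, where 19.9% of the list was. None of the 12 untreated N642H regions was called again either, where 6.87% of the list was. All 3 genes had an untreated STAT5B region within 200 kb in each line, as did 45.2% (WT) and 64.3% (N642H) of protein-coding genes. With prednisolone all 3 had one in the WT line (22.2% of genes), and only ZFP36L2 had one in the N642H line (11.8% of genes). With so few regions the shares near these genes are descriptions, and no difference from the list was tested.

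Genes that work with the ZFP36 proteins, or whose mRNAs they are known to bind, were taken as 4 lists of 89 genes in all. Linked genes are those with a summit of the peak list inside their span or at most 20 kb from it. Shares of all protein-coding genes linked in this way were 4.16% (WT) and 10.9% (N642H) for NR3C1 with prednisolone. For STAT5B they were 15.8% and 28.8% untreated and 6.09% and 3.01% with prednisolone, in the same order of lines. Together the 89 genes were linked at 8 (WT) and 18 (N642H) for NR3C1, at 26 and 47 for untreated STAT5B and at 9 and 9 for STAT5B with prednisolone. As shares these were 8.99% and 20.2%, 29.2% and 52.8%, and 10.1% in both lines; no difference from all genes was tested.

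Of 32 genes of the decay machinery, 1 (WT) and 2 (N642H) were linked to NR3C1, 7 and 15 to untreated STAT5B and 3 and 2 to STAT5B with prednisolone. CNOT9, a CCR4-NOT subunit gene, had an NR3C1 region just outside its span in both lines, at 69 bp (WT, fold 5.87) and 97 bp (N642H, fold 12.1). CNOT6, which encodes a catalytic deadenylase subunit, had an internal NR3C1 region in N642H cells (fold 10.2). DCP1A, a decapping activator gene, had a STAT5B region 68 to 103 bp from its span in all 4 STAT5B lists, with −log10 q of 11.0 untreated and 10.0 with prednisolone in the WT line, and of 15.4 and 9.38 in the N642H line. EXOSC4, an exosome gene (fold 8.39), and EDC4, a decapping scaffold gene (fold 8.09), had untreated STAT5B regions in the N642H line. EXOSC8, another exosome gene, was linked there through regions of which the strongest (fold 7.76) was nearer to ALG5. In the WT line with prednisolone the strongest of its regions lay 23 bp from EXOSC8 itself (fold 6.86).

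Of 14 other regulators of mRNA stability, 2 (WT) and 5 (N642H) were linked to NR3C1 and 5 and 8 to untreated STAT5B. With prednisolone 2 and 1 were linked to STAT5B. PUM2, a Pumilio RNA-binding protein gene, had an internal NR3C1 region of fold 7.65 in the WT line and 20.3 in the N642H line. HNRNPD, which encodes the AU-rich element binding protein AUF1, had one of fold 8.79 and 10.6. CELF1 was linked in 5 lists and in 4 of these its strongest region lay 13442 to 13473 bp away, nearer to KBTBD4. TIA1 and KHSRP were linked to untreated STAT5B only through regions 18425 to 19926 bp away, nearer to C2orf42 and GTF2F1.

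A list of 13 genes encoded kinases, phosphatases and other proteins known to act on ZFP36 proteins. It included members of p38 and MK2 signalling, which restrains ZFP36 proteins by phosphorylation. Of the 13 genes, 1 (WT) and 2 (N642H) were linked to NR3C1. For STAT5B, 4 and 8 were linked untreated and 1 and 2 with prednisolone. DUSP1, the phosphatase that switches p38 off, had a strong NR3C1 region 1355 bp (WT, fold 19.2) and 1342 bp (N642H, fold 67.4) from the gene. In N642H cells MAPKAPK3 had a STAT5B region just inside the lower end of its span, with fold 12.7 untreated and 7.91 with prednisolone. The untreated region was chr3:50611793-50612197. The strongest NR3C1 region of MAPKAPK3 in that line (fold 7.78) lay 10186 bp below the span, nearer to CISH. How far the STAT5B region lay from CISH was not determined here. MAPK11 was linked through a STAT5B site 5966 to 6001 bp away, nearer to PLXNB2, with folds of 12.3 (WT, untreated), 8.11 and 5.08 (N642H, untreated and with prednisolone). YWHAG, PPP2R1A and YWHAZ had untreated STAT5B regions in the N642H line, the strongest with folds of 6.70, 4.80 and 4.80. The strongest of YWHAG was nearer to HSPB1. PPP2R1A also had one in the WT line, 31 bp from its span (fold 6.94).

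Of 30 genes whose mRNAs are known ZFP36 family targets, 4 (WT) and 9 (N642H) were linked to NR3C1, 10 and 16 to untreated STAT5B and 3 and 4 to STAT5B with prednisolone. CCND3, the cyclin D3 gene, had an internal NR3C1 region of fold 39.8 in the WT line and 92.1 in the N642H line. STAT5B with prednisolone was called at that place in both lines (fold 8.25 and 7.86). Untreated STAT5B was linked to CCND3 by 5 regions in the WT line and 8 in the N642H line. The strongest of each line lay inside the gene at another place (fold 7.29 and 12.4). FOS, an immediate early gene, had a region 47 to 463 bp from its span in all 6 long lists, with NR3C1 folds of 8.71 (WT) and 21.5 (N642H). BCL6 (fold 10.3 and 27.9) and CDK6 (fold 11.3 and 12.4) had internal NR3C1 regions in both lines. STAT5B was also called inside BCL6 in the N642H line (fold 18.7 untreated, 7.30 with prednisolone). In the untreated WT line it was called 102 bp from BCL6 (fold 4.14). CDK6 was linked to untreated STAT5B in both lines (fold 6.88 and 6.17), with the strongest regions nearer to FAM133B. In the N642H line only, NR3C1 was called inside BCL2 (fold 18.4) and 7918 bp from PIM1 (fold 19.6), where untreated STAT5B of that line had fold 25.8.

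**Figure D4:**
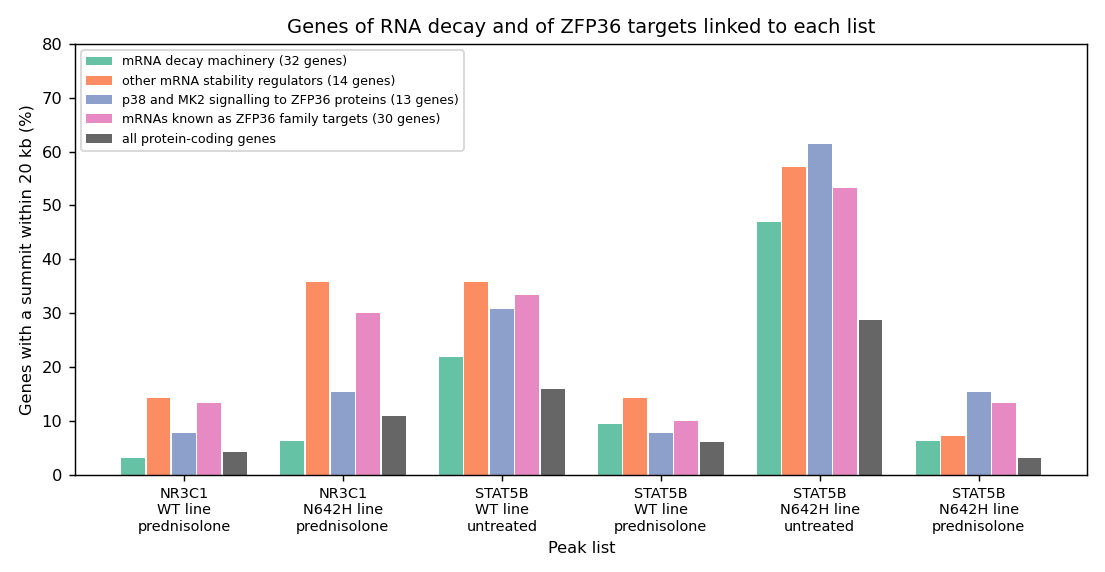
Bars give the percentage of genes with a summit in the span or within 20 kb (y axis) in each of the 6 long lists (x axis), for 4 gene lists and for all protein-coding genes (dark grey). In untreated N642H STAT5B, the 4 lists lie between 46.9 and 61.5% and all protein-coding genes at 28.8%. The NR3C1 bars of the decay machinery (1 WT and 2 N642H of 32 genes) lie below the dark grey ones. Those of the other gene lists lie above them.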

How the data were processed

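The members and gene lists were chosen with earlier results of these data known. Per the submitters' processing notes, BWA, MACS2 and deepTools were used on hg38; versions, settings and the controls used are not given in the sources used here. The authors deposited 1 peak list per ChIP library, with a fold enrichment (ratio) per peak, its −log10 p and −log10 q, a score of 10 times −log10 q, and the summit offset. Regions on unplaced, alternative, decoy and mitochondrial sequences were left out. The 4 input libraries were not analysed here.

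Gene spans (20037 protein-coding genes), promoter windows and the hairpin came from RefSeq tables of GRCh38.p14, whose chromosomes are those of hg38; coordinates count from 1. Regions of different lists overlapping by at least 1 bp formed 1 site. The fragments at each summit were solved from fold and −log10 p under the Poisson formula of MACS2 with a pseudocount of 1, taking the solution nearest to a whole number of fragments. One fragment added 0.8945 (NR3C1) or 0.8487 (STAT5B) to the pileup of prednisolone-treated WT cells, and 1 in the remaining long lists. Fragment solving, window counts and overlaps were tested on simulated data. The solving was given the true size of a fragment there, so the estimate of that size was not tested. Weak regions of prednisolone-treated WT cells had up to 6 candidate solutions near the 3 genes. Named were the 3 genes in every list, sites in 2 or more lists, the strongest region per gene and list, the genes nearest to these, and up to 6 linked genes per gene list; others are said to be chosen later. A linked gene named by this rule is not reported here. The other regions near the 3 genes are given too. Python 3.11.15 with pandas 2.3.3 and scipy 1.17.1 was used. Intervals cover counting error only.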

Additional observations from a re-analysis of the deposited data

How the results depend on the processing

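Region counts per list, shared sites and the 89 linked genes were recounted under other settings; 40 recounts stayed within 1.5 times the value given and 12 did not. Within 50 kb the region counts near the 3 genes were 3 (WT) and 6 (N642H) for NR3C1, 7 for untreated and 0 for prednisolone-treated STAT5B of the N642H line. With every list held to its 446 strongest regions they were 2 and 2 for NR3C1 and 0 (WT) and 1 (N642H) for untreated STAT5B; the NR3C1 regions left were both strong ZFP36L2 sites in each line, and none of the 11 regions near ZFP36 was left. With −log10 q of at least 5 the untreated WT STAT5B count was 1, and the 89 genes were linked at 13 (untreated WT STAT5B) and 5 (N642H STAT5B with prednisolone, also 5 within 5 kb). Fewer regions or a shorter distance enter each of these recounts by construction. The 9 shared sites became 6 to 10 under other overlap rules and thresholds. No paired analysis was possible because each group held 1 library. Presence in a list depends on depth, which was not determined here, so a missing region does not show that a factor was absent.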
